A study of Homo sapiens with 4 samples.

Results

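The m6A peaks described here were those whose listed gene carried a noncoding-type name, and they were divided into 3 name classes. The LINC class held names of the form LINC plus digits, the antisense class held names ending in -AS or in -AS plus 1 digit, and the clone class held names made of 2 letters, 6 digits, a point and 1 digit. Of 31057 distinct peaks in the shNC list, 1438 in 1010 genes were members (4.63%, 95% Wilson interval 4.40 to 4.87). Of 27344 distinct peaks in the shY2-2 list, 1530 in 1075 genes were members (5.60%, 5.33 to 5.87). The shNC members were 129 LINC, 227 antisense and 1082 clone peaks, and the shY2-2 members were 125 LINC, 265 antisense and 1140 clone peaks. Over both lists, 1524 of 13872 genes with a peak carried such a name.

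The cells were A549, an established human lung adenocarcinoma line. One culture carried the control vector (shNC) and the other carried a short hairpin RNA against YTHDF2 (shY2-2), both delivered by lentivirus. Poly(A) RNA of each was fragmented and sequenced before (input) and after (IP) pulldown with an m6A antibody, so the 4 libraries comprised 1 input and 1 IP per condition. With 1 library of each kind there was no replicate check and no test between conditions. Intervals of shares are 95% Wilson intervals that treat peaks as independent and cover counting of peaks alone, and the read depth of the libraries is unknown from these files.

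N6-methyladenosine (m6A) is placed on nascent RNA by the METTL3-METTL14 methyltransferase, mostly within a short motif called DRACH, of which GGAC holds the most typical core. YTHDF2 is a cytoplasmic reader that binds m6A and recruits the CCR4-NOT deadenylase, which starts decay of the bound RNA. Long noncoding RNAs (lncRNAs) can carry m6A as mRNAs do. LINC genes are lncRNA genes that lie apart from coding genes, antisense genes are named for the gene on the opposite strand, and clone names mark loci that had no approved symbol and took the name of a sequenced genomic clone.

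Sequences are printed for peaks of highest fold enrichment that were significant and met in both lists and whose shared stretch held a GGAC. LINC02076, LINC01106 and GABPB1-AS1 also met the enrichment rule, but their shared stretches held no GGAC and have no line. The most significant LINC00511 and OIP5-AS1 peaks were added after their values were seen. Each of the first 7 lines gives 26 bases around a GGAC, 5′ to 3′ on the strand of the listed gene in GRCh38, with GGAC in capitals. The last line gives 30 bases of a tandem repeat, also chosen after the values were seen, which contained no GGAC.
LINC00511, chr17:72403820-72403845, minus strand: atcaggctctcGGACcttagggctgt
OIP5-AS1, chr15:41298905-41298930, plus strand: aaaacaactttGGACatagaggagtt
RAB30-AS1, chr11:83072457-83072482, plus strand: ttgaggtgcgaGGACccgaggcggcg
KDM4A-AS1, chr1:43704624-43704649, minus strand: gacccctctatGGACtggggccagtg
AL359198.1, chr10:91908077-91908102, plus strand: ttcgagaacctGGACttctccccaat
AC015971.1, chr2:86604323-86604348, plus strand: ctcttcagactGGACtccaagacatt
AC008622.2, chr19:46788688-46788713, plus strand: gttcggagactGGACgagtaggggcg
LINC01123, chr2:109995700-109995729, plus strand: aagtgggctcaggaggtctggatctgtgat
Each name is the gene listed for the peak. The bases printed for AL359198.1 lie before that gene's own start and come from a peak opposite FGFBP3, and those for RAB30-AS1, KDM4A-AS1 and AC015971.1 come from peaks opposite LINC02951, KDM4A and RNF103. The GGAC printed for AC008622.2 is followed by G, so it is no DRACH match as defined below. A match shows that the letters are present in the peak, not which adenosine was methylated.

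The repeat lay under the peaks of 2 of the 3 LINC genes named for high enrichment. LINC01123, a lncRNA gene of chromosome 2, had a peak at chr2:109995631-109995990 in shNC with a fold enrichment (IP over input) of 20.6 and an FDR of 7.94e-05. In shY2-2 the peak at chr2:109995571-109996140 reached a fold enrichment of 43.9 with an FDR of 2.34e-10. LINC01106, on the minus strand of the same chromosome, had a peak at chr2:110375227-110375854 with a fold enrichment of 24.4 (FDR 1e-10) in shNC. Its shY2-2 peak at chr2:110375138-110375943 had a fold enrichment of 23.1 (FDR 3.16e-38). The 30 bases printed for LINC01123 occurred exactly 7 times in the 360 bases its peaks shared and 12 times in the 628 bases shared by the LINC01106 peaks. Both loci therefore carried the same repeated unit. Shifted by 40 bases, 97.2% of the LINC01123 peak and 92.4% of the LINC01106 peak in shNC matched itself. Neither shared stretch held a DRACH match (A, G or T, then A or G, then AC, then A, C or T, searched on the listed strand). Genome-wide the unit had 51 exact copies, 31 of them on chromosome 2. How reads from copies of the unit were assigned was not tested.

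LINC02076 was the remaining LINC gene named for high enrichment, and in shY2-2 its peak ranked above that of LINC01106. Its peaks at chr17:18411278-18411990 in shNC and chr17:18411159-18411990 in shY2-2 had fold enrichments of 19.1 (FDR 0.000209) and 27.8 (FDR 4.07e-06). The 713 bases they shared were 82.3% pyrimidine and held no DRACH match. Among member peaks with a fold enrichment of at least 10 and an FDR of at most 0.05, a DRACH match was present in 41 of 47 in shNC and in 59 of 60 in shY2-2. The corresponding counts were 700 of 730 and 720 of 741 among all other peaks. In the LINC class they were 5 of 8 and 5 of 6.

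The name of a peak's gene was checked first against the reference annotation (GENCODE 44). The authors annotated peaks with ChIPseeker by intersection with gene architecture, but how the listed gene was chosen is not stated. Peaks named for LINC genes lay wholly in exons of that gene in 90.6% of cases in shNC and 88.6% in shY2-2. The antisense class followed with 83.6% and 87.8%. The clone class was lower, at 53.8% and 60.4%, beside 89.5% and 87.5% for peaks named for protein-coding genes. Among clone peaks of genes in the reference, 219 of 1039 (21.1%) in shNC and 189 of 1092 (17.3%) in shY2-2 touched no exon of the named gene. Of all 236 such member peaks in shNC, 176 (74.6%) overlapped a protein-coding exon, as did 157 of 206 (76.2%) in shY2-2. Among all other peaks that touched no exon of the listed gene, 889 of 1257 (70.7%) and 812 of 1234 (65.8%) overlapped one.

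Exons of protein-coding genes other than the listed gene lay under many of the members. Here and below, exons of the listed gene itself are not counted, so a peak of a listed protein-coding gene can count as over none. In shNC, 279 member peaks (19.4%) overlapped a protein-coding exon on their own listed strand, and in shY2-2 there were 272 (17.8%). Counted on either strand, 724 (50.4%) and 712 (46.5%) overlapped one, against 14.2% and 14.6% of all other peaks. The classes stood far apart. LINC peaks overlapped a protein-coding exon of either strand in 9 of 129 and 14 of 125 cases, antisense peaks in 77 (33.9%) and 76 (28.7%), and clone peaks in 638 (59.0%) and 622 (54.6%). The reference called 73.6% and 74.8% of member peaks' genes lncRNA, while 130 clone peaks in shNC and 112 in shY2-2 were named for genes that it lists as protein-coding.

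**Figure D1:**
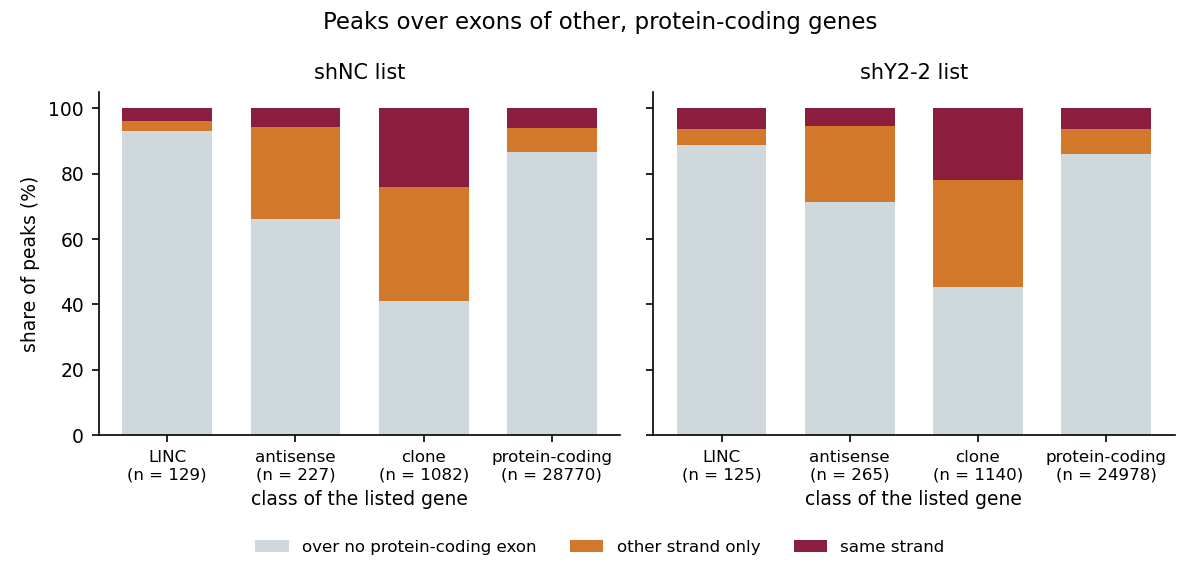
Bars give the share (%) of peaks in each name class and list that overlapped an exon of another, protein-coding gene on the listed strand, on the other strand alone, or on neither strand. In shNC the clone class held 59.0% over a coding exon of either strand and the antisense class 33.9%.

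Gaps between the listed blocks of a peak gave a second view of the same peaks, though no reads across splice junctions were examined. A member peak made of several blocks has gaps, and each gap was compared with annotated introns. Any matching gap sufficed, and each peak had a single category, with the listed gene ranked first and same-strand coding genes next. Of 518 such peaks in shNC and 536 in shY2-2, a gap matched an intron of the listed gene in 36.7% and 44.6%. In the protein-coding class the shares were 73.8% and 68.3%. A protein-coding gene on the other strand gave the match in 128 (24.7%) and 78 (14.6%), beside 2.32% and 2.58% in the protein-coding class. The clone class supplied 110 and 65 of these member peaks. No intron matched in 21.6% and 24.1% of the members, beside 20.9% and 25.2% in the protein-coding class. Libraries were made with strand-specific chemistry, but the strand setting of alignment and peak calling is not given in the sources used here. Where a peak lies over exons of both strands, signal of the listed gene and of its partner cannot be told apart from these values.

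The authors' own placement of peaks in untranslated regions (UTRs) was set beside the coding overlap. They placed 628 member peaks (43.7%) in a UTR in shNC and 609 (39.8%) in shY2-2. A noncoding transcript has no UTR, but 133 shNC and 118 shY2-2 member peaks were named for genes the reference lists as protein-coding. Of the UTR placements, 229 and 214 overlapped an exon of another, protein-coding gene on the listed strand. Another 363 and 366 did so on the other strand alone, and 36 and 29 did so on neither. Only 13 and 12 of the UTR placements fell in the LINC class, whereas 551 and 533 fell in the clone class. In the LINC class, 8 of the 13 in shNC and 3 of the 12 in shY2-2 overlapped a protein-coding exon on neither strand. Among these in both lists were peaks of LINC00094, which the reference names BRD3OS and lists as protein-coding. Some member peaks were both wholly in exons of the listed gene and clear of protein-coding exons of other genes. They numbered 615 of 1392 (44.2%) in shNC and 717 of 1477 (48.5%) in shY2-2, against 80.5% and 78.4% of all other peaks. By class these members were 112 and 104 LINC, 145 and 185 antisense, and 358 and 428 clone peaks.

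Fold enrichment of the members had a median of 2.86 in shNC and 3.04 in shY2-2, beside 2.15 and 2.22 in all other peaks. LINC peaks had medians of 3.31 and 3.63, antisense peaks 3.05 and 2.89, and clone peaks 2.80 and 2.99. Restricted to member peaks over no protein-coding exon, the medians were 3.82 and 4.05. The higher ratios went with lower RNA. The median FPKM (fragments scaled to exon length and mapped fragments, mean of both inputs) of the listed gene was 0.600 for shNC member peaks and 0.546 for shY2-2 member peaks, against 6.34 and 6.30 for the rest. Significance did not follow the ratios, since an FDR of at most 0.05 was reached by 50.4% and 44.1% of members and by 56.7% and 52.6% of other peaks. Among LINC peaks 34.1% and 32.8% reached it. At matched RNA level of the listed gene, which need not be the RNA under the peak, the order of the medians was not uniform. Below an FPKM of 0.5 the members had lower medians than the other peaks, 2.86 against 3.82 in shNC and 3.47 against 5.20 in shY2-2. Between 0.5 and 1 they were 3.56 against 3.62 and 3.76 against 3.85. At an FPKM of 5 or more the members had the higher medians, 2.39 against 1.91 and 2.35 against 1.93.

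**Figure D2:**
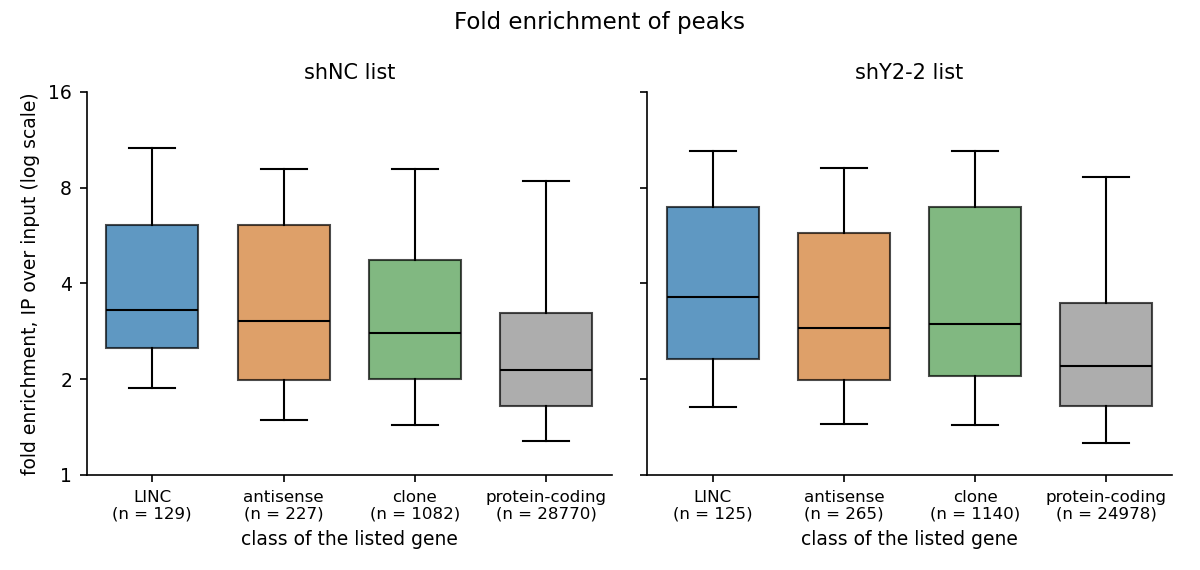
Boxes show the median and quartiles of fold enrichment (IP over input, log axis) for peaks in each name class and in protein-coding genes, with whiskers at the 5 and 95 percentiles and a panel per list. The LINC medians of 3.31 and 3.63 lie above the protein-coding medians of 2.14 and 2.20, and the ranges overlap widely.

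The next comparison asked whether a peak present in 1 condition was met by a peak of the other, counted as at least 1 base shared in exonic blocks on the same strand. Over all peaks, 55.9% of shNC peaks and 65.4% of shY2-2 peaks were met. Of the members, 729 (50.7%, 48.1 to 53.3) in shNC and 731 (47.8%) in shY2-2 were met, which lay below that background in both lists. LINC peaks were met in 56 of 129 and 55 of 125 cases, antisense peaks in 47.6% and 42.6%, and clone peaks in 52.2% and 49.4%. Members over a protein-coding exon were met in 60.8% and 61.2%, and members over none in 40.5% and 36.1%. Across genes the overlap was 561, which was 55.5% of member genes in shNC and 52.2% in shY2-2, whereas 86.8% and 87.8% of other genes with a peak had one in both lists.

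Pooled member shares were highest at the highest RNA level but did not rise at every step. Peaks were grouped by the FPKM of the listed gene, with limits at 0.5, 1, 2 and 5. From the lowest class to the highest, the share of shNC members met was 49.2%, 44.8%, 44.1%, 54.7% and 78.0%. The other shNC peaks ran from 39.6% to 65.0% over the same classes. In shY2-2 the members were met in 43.7%, 41.5%, 44.3%, 54.4% and 79.7%, and the others ran from 33.1% to 78.4%. At matched level of the listed gene, the shNC members, with all names pooled, were met at a higher share in each of the 5 classes. The intervals overlapped with those of the rest in the 3 middle ones. Many members lay over exons of another, protein-coding gene, so the level of the RNA under the peak was not matched. The name classes differed in these shares. Below an FPKM of 0.5 the shares in shNC were 29.4% for LINC (10 of 34), 45.3% for antisense and 51.2% for clone peaks, so LINC peaks lay below the 39.6% of the rest. In shY2-2 they were 10 of 32 for LINC, 38.7% for antisense and 45.3% for clone peaks. The pooled order did not hold in shY2-2, where members lay below the rest between FPKM 1 and 5, at 44.3% against 46.4% and at 54.4% against 59.7%.

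**Figure D3:**
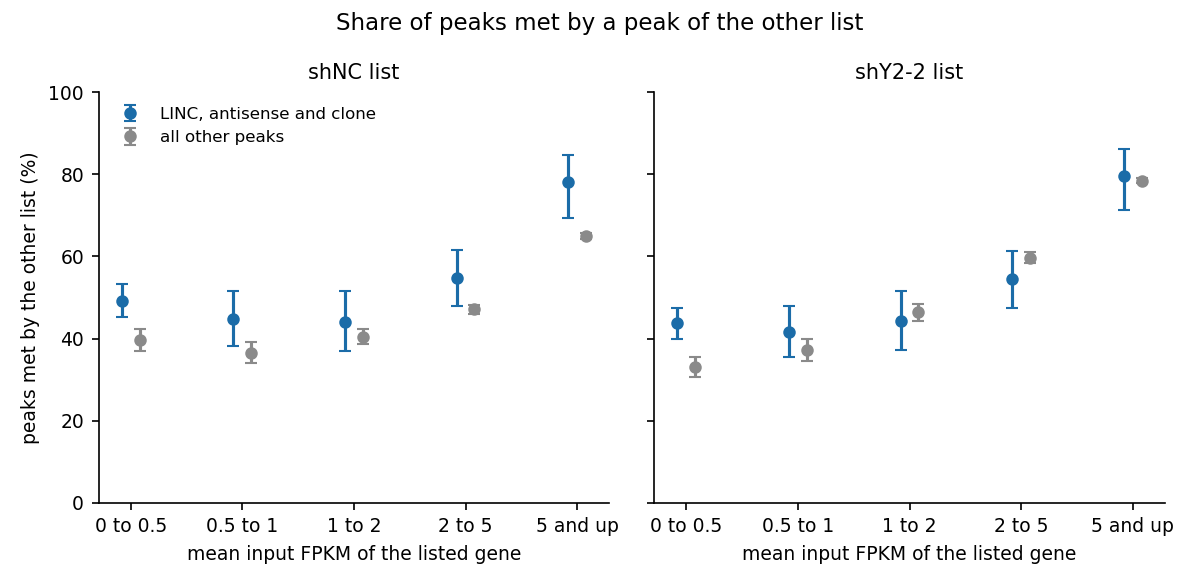
Points show the share (%) of peaks met by a peak of the other list for 5 classes of listed-gene FPKM, with 95% Wilson intervals, for members and all other peaks. Shares are highest in the top FPKM class, at 78.0% of members in shNC and 79.7% in shY2-2.

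Among the LINC genes with most peaks, LINC00963 had 6 peaks in shNC and 5 in shY2-2, with fold enrichments from 1.54 to 4.58 and from 1.52 to 10.4. LINC00511, a lncRNA studied in several carcinomas, had 4 and 5 peaks. Its strongest evidence was a single-exon stretch at chr17:72403344-72404481, with a fold enrichment of 2.6 and an FDR of 2e-11 in shNC. In shY2-2 the peak at chr17:72403494-72404032 had a fold enrichment of 2.52 and an FDR of 3.16e-09, so this site stood at nearly the same ratio in both lists. The printed LINC00511 sequence lies in both peaks.

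Other LINC genes differed between lists or shared their exons. LINC01578, which the reference names CHASERR and which lies upstream of the chromatin remodeller gene CHD2, had 1 peak in shNC and 5 in shY2-2. Its shNC peak had a fold enrichment of 3.39 (FDR 5.01e-29), overlapped a CHD2 exon on the same strand and was placed in a 5′ UTR. The shY2-2 peak over the same stretch had a fold enrichment of 4.24 (FDR 3.16e-36). LINC00473 had 2 overlapping peaks in each list, with fold enrichments of 2.49 and 2.63 in shNC and of 2.89 and 2.97 in shY2-2, all over a PDE10A exon of the same strand. LINC01128 had 4 peaks in shNC and none in shY2-2, but none of those 4 had an FDR below 0.102. LINC00662 had 2 and 4 peaks, of which 1 per list had an FDR of at most 0.05.

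In the antisense class, OIP5-AS1, a long-lived cytoplasmic lncRNA also known as Cyrano, had 7 peaks in shNC and 3 in shY2-2. Its most significant peak, at chr15:41297274-41299462, had a fold enrichment of 5.3 with an FDR of 1e-12 in shNC. The shY2-2 peak at chr15:41298054-41299462 had a fold enrichment of 5.14 with an FDR of 5.37e-10. No gene on the other strand and no protein-coding exon lay under either peak. All 3 shY2-2 peaks of OIP5-AS1 were met, against 3 of 7 in shNC. RAB30-AS1, which the reference now calls a divergent transcript of RAB30, had a peak at its own start with fold enrichments of 3.43 (FDR 0.00708) and 9.25 (FDR 1.7e-05), opposite exons of LINC02951. GABPB1-AS1 had its highest peak at chr15:50366416-50366596 in shNC, with a fold enrichment of 11.4 (FDR 0.0214), and the shY2-2 peak over it reached 16.2 (FDR 0.00363). The 181 bases shared by these GABPB1-AS1 peaks held no DRACH match.

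Further antisense genes had peaks with and without a partner exon beneath them. PINK1-AS had the most peaks of the class, 9 in shNC and 6 in shY2-2. Of the 9 shNC peaks, 4 overlapped exons of PINK1, a mitochondrial kinase gene, on the other strand, and 2 overlapped the neighbouring oligosaccharyltransferase gene DDOST on the same strand. The 3 that overlapped neither had fold enrichments of 5.34 to 8.39 and FDRs of 0.0977 to 0.164. KDM4A-AS1 had 1 peak per list, with fold enrichments of 2.53 (FDR 0.000263) and 9.25 (FDR 3.98e-06), placed by the authors in a 3′ UTR and lying opposite KDM4A, a histone demethylase gene. BAIAP2-AS1 had 4 and 7 peaks, at fold enrichments from 2.21 to 3.94 and from 1.58 to 3.08. No same-strand exon of another, protein-coding gene and no exon of the other strand lay beneath them. CTBP1-AS2 had 6 and 7 peaks, and the highest, with a fold enrichment of 11.6 (FDR 0.0427), was present in shY2-2 alone. Beneath that peak lay no same-strand protein-coding exon and no exon of the other strand.

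Clone genes with most peaks lay on other, coding genes. Of those below, the reference lists AC092143.1, AL365205.1 and AC013489.1 as protein-coding themselves, and AL354740.1 and AC016026.1 as lncRNA. AC092143.1 had 10 peaks in each list, and all 20 overlapped exons of the melanocortin receptor gene MC1R or the tubulin gene TUBB3 on the same strand. Its own FPKM was 0 in shNC and 0.439 in shY2-2. AL354740.1 had 10 and 7 peaks, every one of them opposite exons of NUDT3, which encodes a nudix hydrolase, and none of the 10 in shNC had an FDR of at most 0.05. AL365205.1 had 8 and 4 peaks along the PRICKLE4 and TOMM6 locus. AC016026.1 had 5 and 6 peaks, all over exons of MICAL3. AC013489.1 had 5 and 5 peaks, 1 per list over MRPL46 on the same strand and 4 per list opposite MRPS11, both of which encode mitochondrial ribosomal proteins.

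The clone peaks of highest enrichment were of mixed kinds. AC008622.2 had a peak at chr19:46788651-46788860 in shNC with a fold enrichment of 13 (FDR 0.00263), and in shY2-2 the peak at chr19:46788651-46789039 had a fold enrichment of 22 (FDR 0.000138). No same-strand protein-coding exon and no exon of the other strand lay under these peaks or the near-identical peak listed beside each. A further 3 peaks per list lay opposite SLC1A5, a glutamine transporter gene. AL359198.1 had fold enrichments of 9.66 (FDR 1e-10) in shNC and 34.7 (FDR 6.92e-08) in shY2-2. That peak began before the gene's own start at chr10:91908131 and lay opposite FGFBP3. AC015971.1 had the highest ratio of any shNC member, 27.5 (FDR 9.12e-07), in a peak of 4 blocks from chr2:86564137 to 86617336. No shY2-2 peak of the gene had this extent, so the ratio has no counterpart there. All peaks of AC015971.1 in both lists lay opposite exons of the ubiquitin ligase gene RNF103. Single-block peaks at the same place were closer between lists. The peak starting at chr2:86603393 had fold enrichments of 3.62 in shNC and 2.86 in shY2-2, and the next had 2.25 (chr2:86604021-86604649) and 1.60 (chr2:86604141-86604799).

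Position along the transcript was taken from the peak midpoint in the canonical transcript, for 719 shNC and 788 shY2-2 member peaks of transcripts with several exons. Member midpoints lay in the last exon in 33.1% and 35.3%, beside 57.6% and 62.2% for protein-coding genes. LINC peaks were in the last exon in 43.2% and 46.6%, antisense peaks in 39.5% and 41.7%, and clone peaks in 29.9% and 32.0%. First-exon midpoints made up 44.2% and 45.8% of the members and 7.10% and 7.94% of the protein-coding class. Clone peaks had 47.4% and 50.8% there, and LINC peaks 24.7% in each list. Member transcripts have few exons, with a median of 2 in shNC against 10 in protein-coding genes, so a share per exon is not on the same footing. Member peaks over no protein-coding exon lay in the last exon in 48.4% and 49.0%. Within 1000 bp of the listed gene's start lay 63.1% and 65.2% of member peaks and 25.4% and 25.2% of the others. How far these shares depend on the way the listed gene was chosen was not tested.

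**Figure D4:**
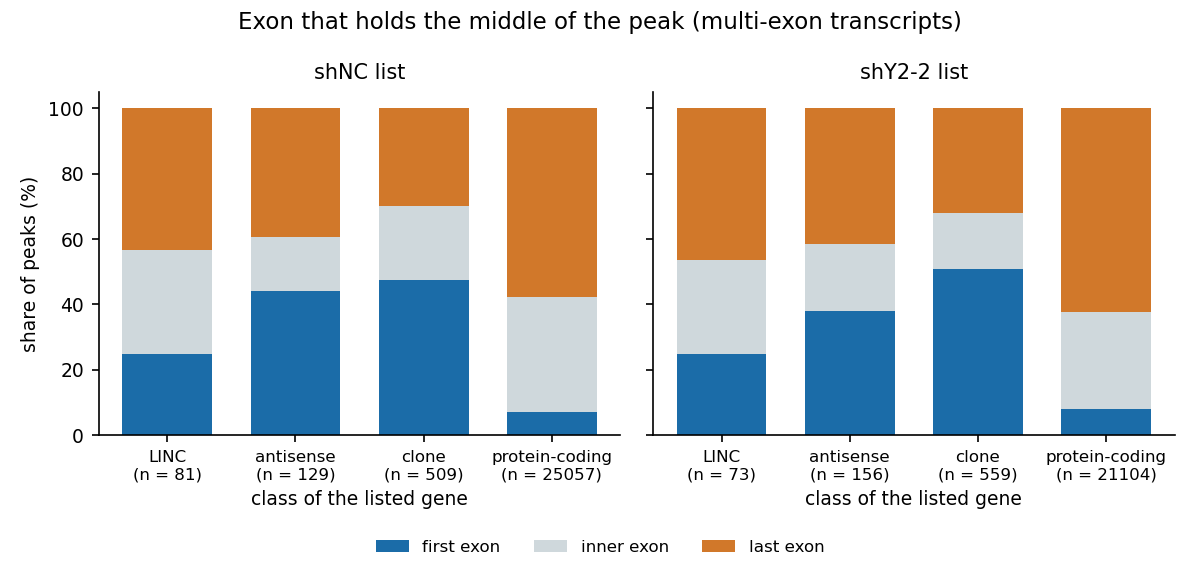
Bars show the share (%) of peak midpoints in the first, a middle or the last exon of the canonical transcript for each name class and for protein-coding genes in both lists. Last-exon shares in shNC are 43.2% for LINC, 39.5% for antisense, 29.9% for clone and 57.6% for protein-coding peaks.

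Motif content, searched on the listed strand alone, resembled that of coding peaks. GGAC occurred 4.10 times per kb of member peak in shNC and 3.93 times in shY2-2, beside 4.11 and 3.98 in protein-coding peaks. LINC peaks had 4.02 and 4.28, antisense peaks 3.62 and 3.60, and clone peaks 4.21 and 3.96 per kb. A GGAC was present in 63.2% and 65.7% of member peaks and a DRACH match in 95.8% and 96.7%. Among all other peaks GGAC was present in 60.9% and 60.3% and DRACH in 95.3% and 95.0%. Median peak lengths, which bear on such shares, were 268 nt for members and 270 for others in shNC but 297 and 269 in shY2-2. Against flanking exonic sequence of the same length, the GGAC ratio of the members was 1.08 (95% Poisson interval 0.958 to 1.22, 557 peaks with such a flank) in shNC and 0.989 (0.886 to 1.10, 591 peaks) in shY2-2. Both intervals include 1, and they also include the protein-coding ratios of 1.12 (1.10 to 1.14) and 1.07 (1.04 to 1.09). The DRACH ratios of the members were 1.16 (1.09 to 1.22) and 1.07 (1.02 to 1.12), beside 1.08 and 1.05 in protein-coding peaks.

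RNA level was read from the input libraries as log2((FPKM in shY2-2 + 1)/(FPKM in shNC + 1)), which understates differences of low genes. YTHDF2 itself had an FPKM of 3.56 in shNC and 1.02 in shY2-2, a log2 ratio of -1.18. The epithelial markers were above an FPKM of 1 in both inputs in 5 of 5 cases and the alveolar type 2 markers in 0 of 4, while 1 of 3 leukocyte, 0 of 3 fibroblast and 0 of 2 endothelial markers were. Of the 1524 member genes, 1344 had a row in the table and 444 reached an FPKM of 1 in either input. Their median log2 ratio was 0.09 (quartiles -0.17 and 0.36), beside 0.00 for the 10222 other genes with a peak that met the same filter. A log2 ratio above 1 was seen in 12 member genes, where 0.986% of all 12268 genes kept were above 1, and a ratio below -1 was seen in 3, where 2.14% were. By class the medians were -0.01 for 58 LINC genes, 0.04 for 77 antisense genes and 0.12 for 309 clone genes.

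**Figure D5:**
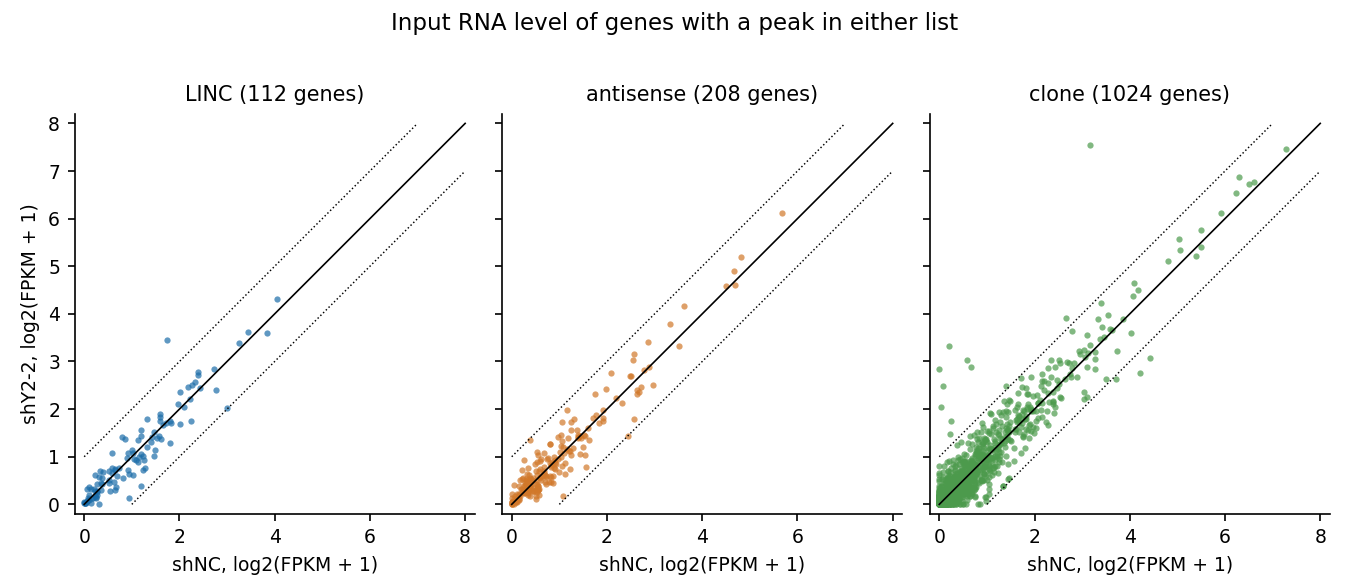
Each point is 1 of the 1344 member genes in the FPKM table, in a panel per name class, at log2(FPKM + 1) in the shNC input (x axis) and the shY2-2 input (y axis), with a solid line at equal levels and dotted lines at log2 ratios of 1 and -1. Most points lie between the dotted lines, and AP002990.1, at an FPKM of 7.95 and 187, is the farthest above them.

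Of the 15 genes past a log2 ratio of 1 in size, 14 were clone genes and 1 was LINC01273. Among them the reference lists AP002990.1, AC087289.3, AL136295.4, AC020915.1, AL157935.2, AC005324.3, AC023055.1 and AC120057.3 as protein-coding and AC106795.1 as a pseudogene. LINC01273 had an FPKM of 2.35 in shNC and 10.0 in shY2-2 (log2 ratio 1.72), with 1 peak per list at fold enrichments of 1.75 (FDR 0.261) and 1.45 (FDR 0.00617). The largest ratio belonged to AP002990.1, at an FPKM of 7.95 in shNC and 187 in shY2-2 (log2 ratio 4.39). This gene spans EEF1G, a subunit gene of translation elongation factor 1, on the same strand, and EEF1G had an FPKM of 507 in shNC and 240 in shY2-2. AC087289.3 went from 0.158 to 8.97 (log2 ratio 3.11), while MRPL38 on the same strand went from 15.8 to 4.63. AL136295.4 went from 17.6 to 5.73 (log2 ratio -1.47), and its same-strand partner IPO4, an importin gene, from 12.8 to 23.2. These 3 partners were chosen after their values were seen, and other partners of the same genes differed, since FBF1 over AC087289.3 had a log2 ratio of 0.34 and TUT1 over AP002990.1 of 0.03. Of 16 pairs of a gene past a log2 ratio of 1 in size with a same-strand coding gene, 9 had log2 ratios of opposite sign and 7 of the same sign. Overlapping genes can share fragments, so these levels are uncertain.

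Named LINC genes mostly stayed within a narrow range. LINC00511 had an FPKM of 3.01 in shNC and 4.13 in shY2-2 (log2 ratio 0.35), LINC00963 of 2.50 and 2.37, and LINC01123 of 2.27 and 2.26. LINC01106 had 4.23 and 5.58. LINC00707 had the lowest ratio of the class, with an FPKM of 6.95 in shNC and 3.05 in shY2-2 (log2 ratio -0.97), and its single peak, at a fold enrichment of 3.13 (FDR 0.00229), was present in shNC alone. LINC01116 stood at 2.16 and 2.18, and LINC00467 at 1.97 and 1.72.

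Antisense genes were set beside the gene they are named for. Both were in the FPKM table for 204 antisense genes with a peak, and all 204 pairs lay on opposite strands. The sense gene also had a peak in 112 of 131 pairs in shNC and in 125 of 156 in shY2-2. Peaks were common in general. Of genes outside the 3 name classes that were kept at an FPKM of 1, 10222 had a peak in either list and 1088 had none. Without that filter the numbers were 12154 and 8214. Neither set was matched to the sense genes by RNA level. Among 61 pairs with both genes kept, the antisense FPKM was below the sense FPKM in both libraries in 44. Median log2 ratios of these pairs were 0.05 for the antisense and -0.07 for the sense genes. SVIL-AS1 had the lowest ratio of the class, with an FPKM of 4.41 in shNC and 1.71 in shY2-2, while SVIL, the supervillin gene, stood at 4.83 and 4.37. CEBPB-AS1 had the highest, with 0.311 and 1.54 (log2 ratio 0.95), beside 48.5 and 72.1 for CEBPB, a bZIP transcription factor gene. MAP3K14-AS1 stood at 1.23 and 2.95 (log2 ratio 0.82) and its sense kinase gene MAP3K14 at 15.5 and 12.9. OIP5-AS1 had an FPKM of 5.20 in shNC and 4.25 in shY2-2 (log2 ratio -0.24), and OIP5 had 7.72 and 10.9.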

How the data were processed

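m6A-seq and input RNA-seq of A549 cells gave 4 libraries, 1 IP and 1 input for shNC (control vector) and for shY2-2 (shRNA against YTHDF2). The authors aligned reads to GRCh38 with HISAT2, called peaks with exomePeak (1 IP against 1 input), annotated them with ChIPseeker and computed expression with StringTie, and fastp and HOMER are named in the submitters' processing notes. Tool versions, annotation release, strand setting and the limit for calling a peak are not given in the sources used here. The deposited FPKM values are normalized by the authors for exon length and mapped fragments. The deposited fold enrichment is a linear ratio of IP over input per peak. The deposited p-value of each peak and the deposited log10 scores of p and FDR are those of the peak caller, and FDR here is 10 to the power of that score.

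Distinct peaks were taken from each list and sorted by name class. Members, gene lists and the rule for named genes were chosen with earlier results of these data known. The rule named, per class, the 4 genes with most peaks, the 3 with the highest enrichment at an FDR of at most 0.05 in both lists, the 2 highest and 2 lowest log2 ratios at an FPKM of at least 1, a list of lncRNAs known in tumours, the 3 with most peaks that the reference does not call lncRNA, sense genes of named antisense genes, and YTHDF2. Any gene outside that rule was picked with its values in view. Peaks overlapped when exonic blocks shared at least 1 bp on the same strand, and exons came from GENCODE 44 on GRCh38. The pseudocount on FPKM was 1. Shares have Wilson intervals at 95%. Alternatives varied the FDR, fold, overlap, strand, biotype, transcript, FPKM filter and pseudocount, and those restricting members by exon position or merging overlapping peaks were chosen after seeing the data. Scripts were tested on simulated data. The software was pysam 0.24.0 for sequences, pandas 2.3.3 and NumPy 2.4.6 for tables, SciPy 1.17.1 and, for plots, matplotlib 3.10.9, under Python 3.11.15.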

Additional observations from a re-analysis of the deposited data

How the results depend on the processing

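Under the alternatives, 43 values stayed within the interval of the main value or 1.5 times the main count, and 61 moved. The median log2 ratio of member genes stayed above 0 throughout. The motif ratio to flanking sequence in shY2-2 was 0.989 (0.886 to 1.10) for GGAC and 1.07 (1.02 to 1.12) for DRACH, so it lay on opposite sides of 1 and its interval excluded 1 for DRACH alone, while in shNC it was 1.08 (0.958 to 1.22) and 1.16 (1.09 to 1.22). Values are given for shNC and then for shY2-2. At an FDR of at most 0.05 there were 724 and 674 members. A peak of the other list that also reached this FDR met 59.8% and 62.5% of them. Their median fold enrichments were 2.59 and 2.57. They had a same-strand protein-coding exon in 27.5% and 26.4%, and an exon of the other strand in 56.2% and 52.8%. Their UTR placements were 63.1% and 62.8%, and in shY2-2 their last-exon share was 30.5%. At an FDR of at most 0.001 there were 404 and 364 members with medians of 2.60 and 2.53. At a fold enrichment of at least 4 there were 471 and 594 members. Of these, 25.5% and 19.4% were met by a peak of the other list that itself had a fold enrichment of at least 4. Members over no protein-coding exon numbered 714 and 818, were met in 40.5% and 36.1%, had medians of 3.82 and 4.05, UTR placements of 5.04% and 3.55%, and last-exon shares of 48.4% and 49.0%. Members wholly in exons of the listed gene numbered 863 and 998, were met in 47.9% and 43.3%, had medians of 3.31 and 3.47, same-strand coding overlap in 9.97% and 9.62%, other-strand overlap in 24.1% and 24.6%, UTR placements of 27.2% and 25.0%, and last-exon shares of 41.8% and 42.1%. Met shares were 47.6% and 44.6% with at least 50% of the shorter peak shared, 57.8% and 55.4% with either strand allowed, and, in shY2-2, 45.1% with overlapping peaks merged. With lncRNA biotypes alone, same-strand coding overlap was 11.5% and 10.1%, other-strand overlap in shY2-2 was 41.2% and UTR placement in shNC was 40.1%. With canonical transcripts, same-strand overlap was 16.6% and 14.8% and other-strand overlap in shY2-2 was 35.5%. With the longest transcript, last-exon shares were 38.7% and 40.5%. The median log2 ratio of member genes was 0.21 at an FPKM of at least 5 and 0.016 with no filter. The restrictions by exon position and the merging were chosen after seeing the data, and the cause of these moves was not tested. No paired analysis was possible because each condition has 1 library of each kind. Read depth is unknown, so a peak absent from 1 list may have been undetectable there.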

Other observations

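A tandem repeat was also present under TP73-AS1, whose shNC peak at chr1:3739160-3739698 had a fold enrichment of 2.77 (FDR 0.000417) and matched itself in 84.5% of bases when shifted by 36. Among peaks of at least 200 nt, 3 of 981 shNC members and 4 of 1103 shY2-2 members reached 80% equal bases at a shift of 10 to 100, beside 10 of 20160 and 12 of 16969 other peaks.

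Single values of fold enrichment recurred. In shY2-2, 163 member peaks (10.7%) had exactly 6.94, as did 4.70% of other peaks, and in shNC the most common value was 6.87, in 55 member peaks. Many current names differ from the deposited ones. Of 217 antisense genes 33, and of 1193 clone genes 94, are named as divergent transcripts in GENCODE 44, and 811 clone genes are named there by identifier alone.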
